A study of Mus musculus with 2 samples.

Results

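Blood endothelial cells that lacked the Glycam1 program made up 134 of 8909 mouse mammary cells, 91 of 5493 in a library called cKO and 43 of 3416 in a library called Ctrl. The members were chosen by measured UMI counts. A cell entered the gate with at least 3 raw unique molecular identifiers (UMIs, counted messenger RNA molecules) over the endothelial genes Cdh5, Egfl7, Esam and Pecam1, and with at least 2 Sparcl1 UMIs per 10000 UMIs of the cell. It also had fewer than 100 Glycam1, 50 Krt18 and 20 Krt5 plus Krt14 UMIs per 10000, and fewer than 3 raw UMIs of the lymphatic genes Lyve1 and Mmrn1. The cells are called gated cells here, and Glycam1-high cells are those of the same gate with at least 100 Glycam1 UMIs per 10000, whatever their Sparcl1.

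Single-cell RNA-seq was made from 1 library per group, so no difference between the groups has a replicate check and no test between them was possible. The cKO mice were homozygous for a floxed miR-200c/141 locus (miR-200c/141-flox/flox) and carried K8-CreERT2, a tamoxifen-inducible Cre under the promoter of keratin 8, a luminal epithelial keratin. The Ctrl mice had the floxed locus (miR-200c/141-flox/flox) without the Cre. Mice of both groups were C57BL/6, were given tamoxifen at 8 to 10 weeks of age and had their glands taken 4 weeks later, while the labels also state an age of 8 weeks. The mammary cells of both libraries had passed a FACS enrichment, whose gate and the number of mice per library the labels leave unstated, and the comparison asked what loss of the microRNAs does to gene expression in mammary cells. Because the Cre is driven from a luminal keratin, endothelial cells are not the cells in which deletion was aimed, and the deletion could not be read from these counts.

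Both microRNAs of the locus lie on chromosome 6 of the mouse genome, on the minus strand, and their mature sequences (RefSeq, GRCm38.p6) are shown because their seeds, bases 2 to 8 in capitals, define what the deleted locus would target.
mmu-miR-200c-3p: uAAUACUGccggguaaugaugga
mmu-miR-141-3p: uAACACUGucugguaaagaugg
The first spans chr6:124718324-124718346 and the other chr6:124717917-124717938.

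Blood capillaries of adipose-rich tissues such as the mammary fat pad take up fatty acids, for which the endothelium uses the scavenger receptor CD36, the cytosolic carrier FABP4 and GPIHBP1, which holds lipoprotein lipase on the luminal surface. Along the vessel tree, arterial endothelium is marked by SOX17, Notch signalling and connexins, and venous endothelium by the transcription factor NR2F2 and by leukocyte adhesion molecules. Glycam1 encodes a mucin that carries sugar ligands for L-selectin in high endothelial venules, the vessels through which lymphocytes enter lymph nodes, and mammary fat pads hold a lymph node.

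The gate narrowed step by step. Of the cells with at least 3 endothelial UMIs, 601 in cKO and 132 in Ctrl, 527 and 113 stayed below the keratin limits, 394 and 100 below the Lyve1 and Mmrn1 limit, 120 and 56 below the Glycam1 limit, and 91 and 43 reached the Sparcl1 minimum. The gated cells were 1.66% of the kept cKO cells (95% Clopper-Pearson interval 1.34 to 2.03) and 1.26% of the kept Ctrl cells (0.912 to 1.69), and the intervals overlapped. Near the limits, 2 cKO cells and 0 Ctrl cells had exactly 3 endothelial UMIs, and as many had 2 and stayed out. For Sparcl1, 8 cKO and 4 Ctrl cells stood at 2 to 3 per 10000, 8 cKO and 3 Ctrl cells at 1 to 2 stayed out, and 15 cKO and 5 Ctrl cells that passed every other limit had no Sparcl1 UMI. For Glycam1, 1 cKO cell and 0 Ctrl cells stood at 50 to 100 per 10000, against 7 and 0 at 100 to 200 that stayed out. Below 10 Glycam1 UMIs per 10000 were 87 of the 91 cKO cells and all 43 Ctrl cells.

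The deposited libraries held 6257 cKO barcodes with 103668011 UMIs and 4237 Ctrl barcodes with 95520633 UMIs. Cells were kept from 500 detected genes upward if mitochondrial UMIs were no more than 10%, with a median of 14002 UMIs in cKO and 19846 in Ctrl. The gated cells held 1164599 UMIs in cKO and 648388 in Ctrl, with medians of 10261 and 10748 UMIs and of 2739 and 2755 genes per cell. Barcodes shared by the libraries were 5 among kept cells and 0 among gated cells, and Scrublet called 0 gated cells as doublets, though it called only 55 cKO and 27 Ctrl cells in all, so pairs of cells may remain. Levels below are UMIs summed over cells and scaled to a total of 1000000 (CPM), with 95% intervals that cover counting error only. Glycam1, which the rule capped, stood at 273 CPM in cKO gated cells and 47.8 CPM in Ctrl gated cells, against 212 and 28.2 CPM in the cells outside the endothelial gate. The part of RNA free in the droplets in these levels was not tested.

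Of the 6 given markers, Sparcl1 chose the cells and its values only describe the rule. The other 5 are outside the rule. They were chosen with earlier results of these data known, so their levels describe the gated cells and do not test the label. Sparcl1 (chr5:104079111-104113733, minus strand, GRCm38), which encodes a secreted matrix protein, stood at 990 CPM in cKO and 933 CPM in Ctrl, and per cell the lowest, median and highest values were 2.03, 8.62 and 44.8 per 10000 in cKO and 2.12, 7.51 and 31.1 in Ctrl. In Glycam1-high cells it stood at 32.3 and 30.4 CPM, and in cells outside the endothelial gate at 0.925 and 1.17 CPM.

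Fabp4 (chr3:10204088-10208576, minus strand) was among the most abundant messages of the gated cells. It stood at 13222 CPM in cKO and 9248 CPM in Ctrl, against 840 and 437 CPM in Glycam1-high cells. Per 10000 UMIs, the lowest, median and highest cells had 0, 114 and 485 in cKO and 0, 84.1 and 318 in Ctrl. After each cell was thinned to 1000 UMIs, 89.0% of cKO and 90.7% of Ctrl gated cells kept a Fabp4 UMI, against 28.6% and 27.3% of Glycam1-high cells and 0.717% and 0.336% of cells outside the endothelial gate. Fabp4 was thus read in nearly every gated cell, over a wide range of levels that overlapped between the libraries.

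Ly6c1 (chr15:75044018-75048830, minus strand), a surface protein of many mouse blood vessels, stood at 1391 CPM in cKO and 1326 CPM in Ctrl, against 52.2 and 64.7 CPM in Glycam1-high cells. Cd36 (chr5:17781690-17888801, minus strand) stood at 376 and 466 CPM, while Glycam1-high cells held 1 Cd36 UMI in cKO and 0 in Ctrl. Sox17 (chr1:4490931-4497354, minus strand), a transcription factor of arterial endothelium, stood at 340 and 335 CPM, against 65.1 and 36.9 CPM. The markers differed in the share of cells in which they were read. After thinning to 1000 UMIs, a UMI was kept for Ly6c1 in 64.8% of cKO and 62.8% of Ctrl gated cells, for Cd36 in 26.4% and 34.9%, and for Sox17 in 19.8% and 23.3%. Outside the endothelial gate the thinned shares were at most 0.717%, apart from Ly6c1 in Ctrl at 4.86%.

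Cytl1 (chr5:37735519-37739820, plus strand), which encodes a secreted cytokine-like protein, behaved differently from the other markers. It stood at 305 CPM in cKO and 281 CPM in Ctrl, but only 20 of 91 cKO cells and 7 of 43 Ctrl cells held a UMI, and 17 and 4 cells held 3 or more. The highest cells reached 52.7 and 51.2 per 10000, and the median cell of both libraries had 0. Glycam1-high cells held 0 Cytl1 UMIs in both libraries, and against a floor of 3 counts in their sum the log2 ratio was at least 9.68 in cKO and at least 7.18 in Ctrl. Cytl1 thus marked a minority of the gated cells. The 6 markers together were also read in endothelial cells with at least 3 UMIs of Lyve1 and Mmrn1. There they summed to 4840 CPM in cKO and 2386 CPM in Ctrl, against 16624 and 12588 CPM in the gated cells. In that lymphatic gate, 79 of 98 cKO and 7 of 10 Ctrl cells held 3 or more marker UMIs, while Cytl1 was at 0 in both libraries.

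**Figure D1:**
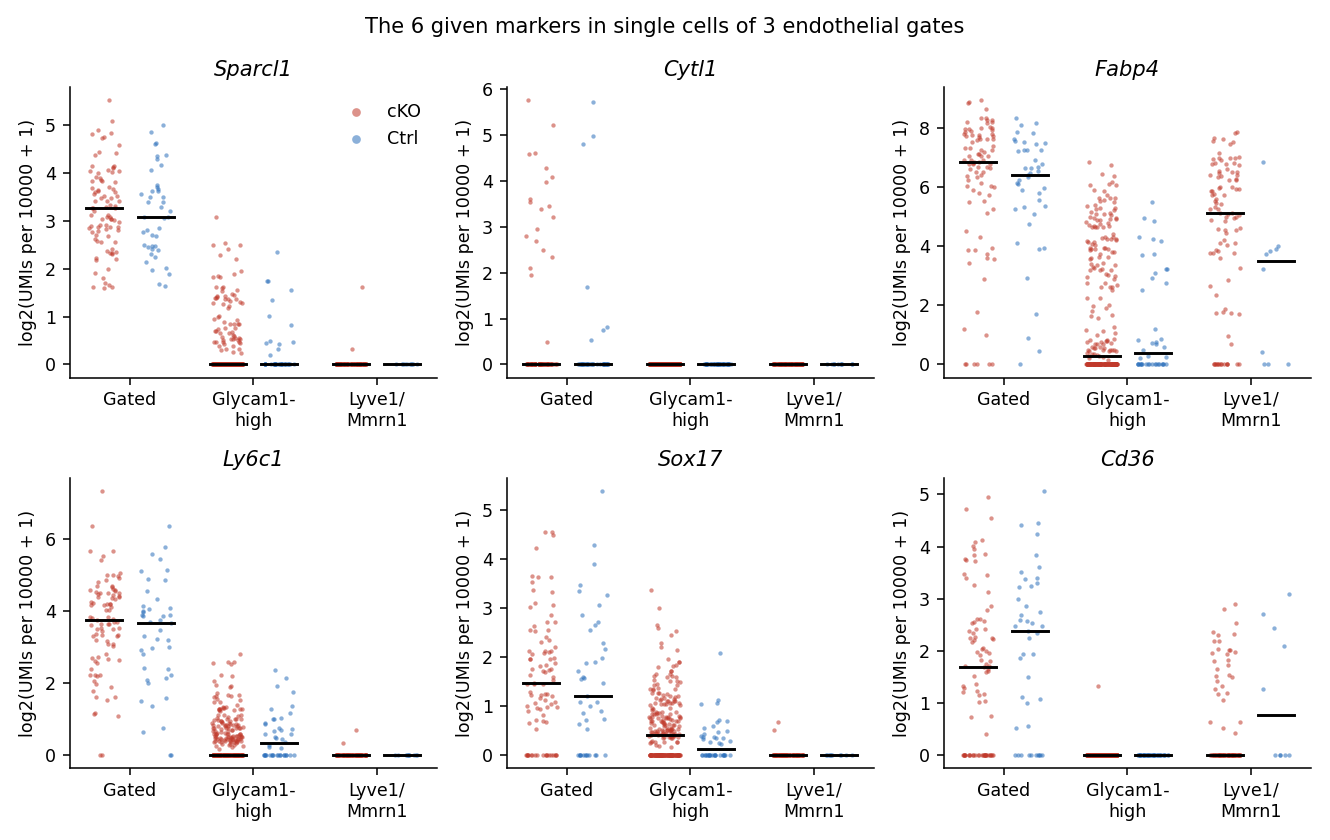
Each point is 1 cell and each panel 1 marker. The y axis gives log2(UMIs per 10000 + 1), and the x axis gives the gated cells, the Glycam1-high cells and the cells gated by Lyve1 and Mmrn1, with cKO (red) left of Ctrl (blue) and a bar at the median. Fabp4 lies above 0 in nearly all gated cells, and Cytl1 has a median of 0 with 20 cKO and 7 Ctrl cells above it.

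Marker lists of other cell types were summed in the gated cells. All 8 lymphocyte markers were at 0 in both libraries, and the 8 myeloid markers summed to 22.3 CPM in cKO and 17.0 CPM in Ctrl, with Lyz2, C1qc and Tyrobp at 0 in both. Lymphatic endothelial markers summed to 19.8 and 38.6 CPM, with the lymphatic transcription factor Prox1 at 2 UMIs in cKO and 9 in Ctrl. Mural cell markers, of pericytes and smooth muscle, summed to 184 and 108 CPM, and 15 cKO and 6 Ctrl cells held 3 or more of their UMIs. Rgs5, a pericyte gene, made up most of that, at 103 and 60.1 CPM. Fibroblast markers summed to 180 and 139 CPM, and 15 cKO and 7 Ctrl cells held 3 or more of their UMIs. In cKO, the richest cell, of 2755 UMIs, held 37 of the 209 fibroblast UMIs, and the next, of 2308 UMIs, held 36. In Ctrl the deepest gated cell held 36 of 90. Without cells carrying 3 or more UMIs of the mural, fibroblast, myeloid and lymphocyte lists together, 68 cKO and 34 Ctrl gated cells remained. Luminal epithelial markers summed to 994 and 301 CPM and basal ones to 146 and 302 CPM. High endothelial markers summed to 1685 CPM in cKO and 1493 CPM in Ctrl, most of it Selp, P-selectin, at 950 and 1166 CPM and Ackr1 at 316 and 167 CPM. Chst4 and Fut7 of that list, which encode enzymes that build L-selectin ligands, were at 1 UMI each in cKO and 0 in Ctrl. These sums include genes that the rule capped, which are Lyve1 and Mmrn1 in the lymphatic list, Krt18 in the luminal, Krt5 and Krt14 in the basal and Glycam1 in the high endothelial list.

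The levels that follow set gated cells beside Glycam1-high cells of the same library. Glycam1 chose both populations, and the Sparcl1 minimum applied to the gated cells alone, so these values describe them and nothing is tested. Glycam1 itself stood at 151025 CPM in Glycam1-high cells of cKO and 197770 CPM in those of Ctrl, which lowers every other CPM there. The median log2 ratio over all genes was 0.25 in cKO and 0.40 in Ctrl, it was 0.01 and 0.08 with Glycam1 taken out of the totals, and it was -0.14 in both with a trimmed mean of M values (TMM) scaling. Among 5467 genes with at least 30 UMIs in each library, 813 (14.9%) passed 2-fold upward in gated cells of both libraries and 224 (4.1%) downward. With TMM scaling the counts were 445 and 468, so the split between higher and lower depends on the scaling. A gene could reach the 30 UMIs through the population where it stood higher, so the counts over lists below are read only as a description of the members tested.

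Capillary genes stood higher in the gated cells. Of 15 listed members 11 could be tested, of which 9 were at least 2-fold higher in gated cells of both libraries under all 3 scalings, and 0 were lower, with median log2 ratios of 3.98 in cKO and 4.40 in Ctrl. Rgcc, a regulator of the cell cycle, stood at 308 CPM in cKO gated cells and 230 CPM in Ctrl gated cells, against 1.99 and 1.94 CPM in Glycam1-high cells. The chemokine gene Cxcl12 stood at 621 and 426 CPM, against 4.72 and 3.88 CPM. Aqp1, a water channel, stood at 228 and 358 CPM, against 69.2 and 113 CPM. The mesodermal transcription factor genes Tcf15 and Meox2, which together drive fatty acid transport genes in heart endothelium, were also among the 9.

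Fatty acid handling genes stood in the same direction. Of 20 listed members 10 could be tested, of which 8 were at least 2-fold higher in gated cells of both libraries and 0 lower, with median log2 ratios of 3.40 and 3.13, and 7 were with TMM scaling. Some of these genes are also in the capillary list. Gpihbp1 stood at 304 CPM in cKO and 228 CPM in Ctrl, against 4.72 and 10.3 CPM in Glycam1-high cells. Pparg, the transcription factor that induces Fabp4 and Cd36, stood at 61.0 and 43.2 CPM, against 2.98 and 1.94 CPM. Mgll, a monoglyceride lipase, stood at 325 and 173 CPM, against 6.59 and 11.7 CPM, and the lipoprotein receptor gene Scarb1 at 156 and 154 CPM, against 22.0 and 38.8 CPM. Lpl, whose product GPIHBP1 carries, was at 16.3 and 21.6 CPM in the gated cells.

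Arterial genes also stood higher, with 10 of 16 members tested, 9 of these at least 2-fold higher in both libraries, 0 lower and medians of 2.78 and 3.60 (8 of 10 with TMM scaling). Gja4, the gap junction gene for connexin 37, stood at 278 CPM in cKO and 137 CPM in Ctrl, against 1.49 and 7.76 CPM in Glycam1-high cells. Fbln5, needed for elastic fibre assembly, stood at 524 and 487 CPM, against 13.9 and 9.71 CPM. The ephrin gene Efnb2, a classical arterial marker, stood at 73.8 and 105 CPM, against 2.11 and 6.47 CPM.

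Venous genes split. Of 14 listed members 13 could be tested, of which 5 were at least 2-fold higher in gated cells of both libraries and 4 lower, with medians of -0.46 and -0.25, and with TMM scaling the counts were 2 and 5. Higher were the adhesion genes Vcam1 (1966 CPM in cKO and 1610 CPM in Ctrl, against 347 and 450 CPM), Icam1 (1648 and 2131 CPM, against 234 and 358 CPM) and Sele, along with Vwf and Ephb4. Lower were Nr2f2, at 25.8 and 46.3 CPM against 105 and 109 CPM, Ackr1, the chemokine-binding receptor of venules, at 316 and 167 CPM against 904 and 688 CPM, Lrg1 at 376 and 674 CPM against 3859 and 3527 CPM, and Bst1. Adhesion molecules and the venule receptor of the same list thus stood on opposite sides.

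The leukocyte homing list also split, with 5 of 17 tested members at least 2-fold higher in both libraries and 6 lower. It shares the higher Sele, Icam1 and Vcam1 and the lower Ackr1 with the venous list. Among the higher were Cx3cl1, which encodes a membrane-bound chemokine, at 108 and 55.5 CPM against 1.24 and 0.647 CPM, and Podxl, a sialomucin gene, at 101 and 98.7 CPM against 2.86 and 2.59 CPM. Among the lower were the ligand-building genes Chst4, Fut7, Gcnt1 and Chst2. Fut7 was at 1 UMI in cKO and 0 in Ctrl, against 273 and 185 CPM in Glycam1-high cells, and Chst4 likewise at 1 and 0 UMIs, against 156 and 164 CPM. The Ccl21a gene model, for a chemokine that draws lymphocytes to lymph nodes, was at 16.3 and 4.63 CPM in the gated cells, against 13273 and 16886 CPM in Glycam1-high cells. Its near-identical copies may share reads, so the model's level is uncertain.

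Receptors and signalling genes of vessel growth were mostly higher or close. In the list of VEGF, TIE and TGF-beta family signalling, 11 of 18 tested members were at least 2-fold higher in both libraries and 1 lower, with medians of 1.53 and 1.41. Flt1, the decoy-like VEGF receptor, stood at 595 CPM in cKO and 634 CPM in Ctrl, against 170 and 152 CPM in Glycam1-high cells, while Kdr, the main signalling receptor, stood at 198 and 200 CPM against 121 and 128 CPM. The angiopoietin receptor gene Tek stood at 33.5 and 40.1 CPM against 4.47 and 7.76 CPM. Its antagonist ligand Angpt2 was the lower member, at 37.8 and 67.9 CPM against 222 and 137 CPM. The tip cell gene Apln was at 0 UMIs in cKO and 3 in Ctrl.

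Of the shear stress and anticoagulant genes, 8 of 11 tested members were at least 2-fold higher in both libraries and 1 lower. The flow-induced transcription factor gene Klf2 stood at 398 CPM in cKO and 231 CPM in Ctrl, against 61.4 and 14.9 CPM. Procr, the endothelial protein C receptor gene, stood at 1410 and 1667 CPM, against 222 and 236 CPM, and Thbd, its partner thrombomodulin, at 111 and 116 CPM against 5.47 and 7.12 CPM. The lower one was F8, which encodes clotting factor VIII, at 3.44 and 1.54 CPM against 64.6 and 27.2 CPM. Tfpi, an inhibitor of coagulation, stood at 105 and 150 CPM against 337 and 298 CPM, a log2 ratio of -1.69 in cKO and of -0.99 in Ctrl, which missed 2-fold. With TMM scaling 7 members were higher and 2 lower. Procr and Thbd thus stood higher in the gated cells, while F8 and the anticoagulant gene Tfpi stood lower.

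Of 14 tested MHC and antigen presentation genes, 1 was at least 2-fold higher in gated cells of both libraries and 4 were lower, and with TMM scaling the counts were 0 and 6. The 4 lower ones were class II genes. Cd74, the class II invariant chain, stood at 6.01 CPM in cKO and 33.9 CPM in Ctrl, against 1194 and 1516 CPM in Glycam1-high cells. H2-Aa stood at 1.72 and 6.17 CPM against 60.4 and 75.7 CPM, and H2-Ab1 and H2-Eb1 were the others. The higher one was the class I gene H2-Q4, at 537 and 549 CPM against 171 and 243 CPM, while the class I gene H2-D1 stood at 3387 and 3537 CPM against 2904 and 3488 CPM. The platelet chemokine gene Pf4 was also low in the gated cells, at 5.15 and 6.17 CPM against 376 and 304 CPM.

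Of 15 tested interferon-stimulated genes, 5 were at least 2-fold higher in gated cells of both libraries and 0 lower, with medians of 0.41 and 0.35. With TMM scaling 2 were higher and 1 lower, with medians of 0.02 and -0.19. Of 11 tested genes reported as targets of the miR-200 family, 3 were higher, Flt1, the transcription factor gene Ets1 and Fn1, and 1 lower, Ccnd1, which encodes cyclin D1. Ccnd1 stood at 80.7 and 116 CPM, against 659 and 597 CPM in Glycam1-high cells. Of 20 pan-endothelial genes, 7 were at least 2-fold higher in both libraries and 0 lower, with medians of 0.56 and 0.51 that became 0.17 and -0.03 with TMM scaling. The tight junction gene Cldn5 was one of the 7, at 525 and 463 CPM against 12.2 and 23.3 CPM, while Plvap, the fenestral diaphragm gene, stood at 1027 and 1602 CPM against 969 and 1329 CPM. Of 12 basement membrane genes, 6 were at least 2-fold higher and 0 lower, Sparc among them at 1874 and 1777 CPM against 201 and 153 CPM. Of 19 endothelial transcription factor genes, 12 were higher and 1 lower, with Epas1, the HIF-2 alpha gene, among the 12 at 241 and 194 CPM against 54.6 and 71.8 CPM. Of 9 junction genes 4 were higher and 0 lower, of 9 genes of caveolae and fenestrae 1 and 0, of 5 Notch genes 2 and 0, of 6 tip and angiogenic genes 3 and 1, and of 10 genes of hypoxia and glycolysis 4 and 0. Only 2 genes of S phase and mitosis could be tested, of which 1, Pcna, was higher.

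Immediate early and heat shock genes, which dissociation of tissue can induce, moved with the same comparison. Of 13 immediate early genes, 12 were at least 2-fold higher in gated cells of both libraries, with Fos at 944 and 402 CPM against 194 and 60.2 CPM and Nr4a1 at 124 and 134 CPM against 2.98 and 3.23 CPM. Of 10 heat shock genes, 6 were higher, with Hspa1a at 1478 and 2607 CPM against 78.9 and 376 CPM. With TMM scaling 10 and 3 were. The gated cells were also shallower than the Glycam1-high cells, whose medians were 26388 and 31596.5 UMIs. The part of stress genes and of depth in the differences above was not tested.

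**Figure D2:**
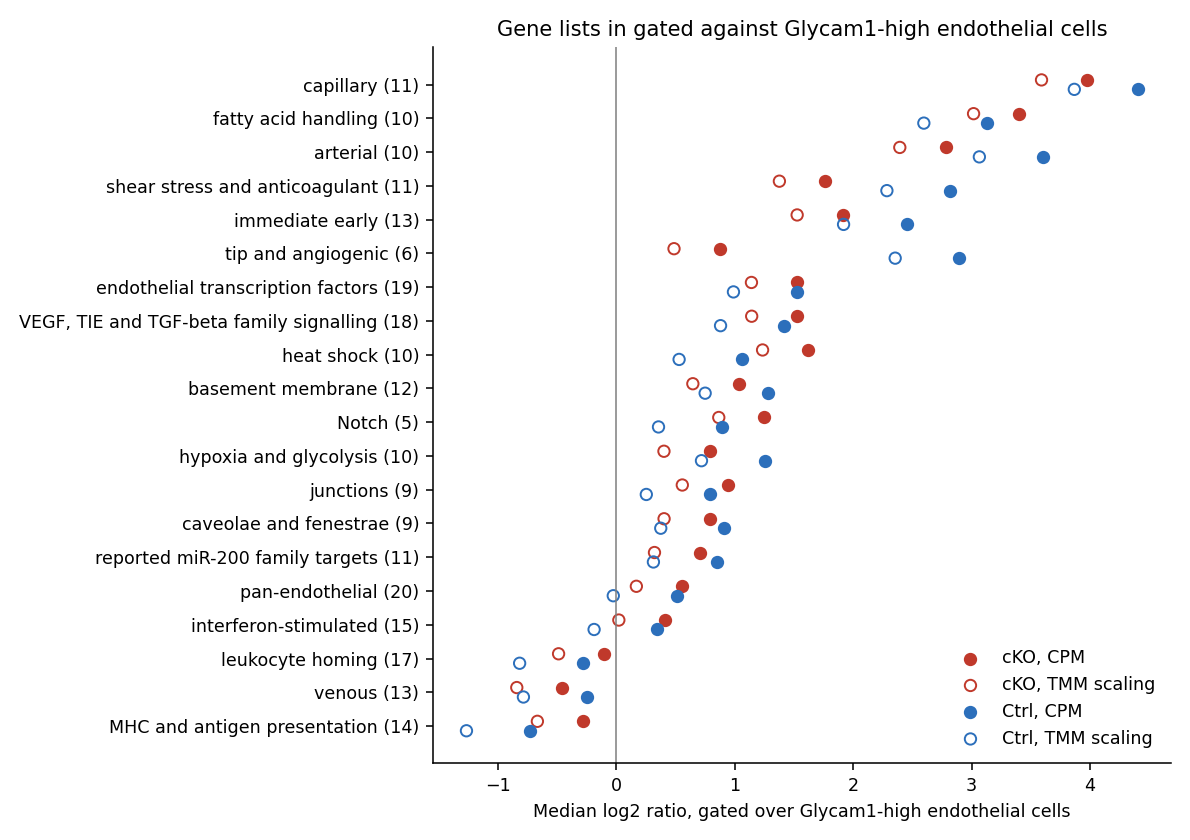
The x axis gives the median log2 ratio of each gene list in gated over Glycam1-high cells, and each row is 1 list with its number of tested genes in brackets. Filled points are CPM and open points TMM scaling, cKO in red above Ctrl in blue. The capillary list lies farthest to the right, with medians of 3.98 and 4.40, and the MHC, venous and leukocyte homing lists lie below 0.

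The single genes that stood out most by the weaker of both libraries' ratios included several outside these lists. Mgp, a matrix Gla protein of arteries, stood at 1328 CPM in cKO and 1235 CPM in Ctrl, against 0.497 and 1.29 CPM in Glycam1-high cells. Ednrb, the endothelin B receptor gene, stood at 613 and 393 CPM against 1.62 and 1.29 CPM, and Gdf15, a stress-induced cytokine gene, at 1252 and 808 CPM against 7.95 and 2.59 CPM. Col13a1, a transmembrane collagen gene, stood at 131 and 94.1 CPM against 0.249 and 0.647 CPM. Fn1, fibronectin, stood at 219 and 236 CPM against 1.24 CPM in cKO and 0 UMIs in Ctrl. Rbp7, a retinol-binding protein gene of fat-tissue endothelium, stood at 188 and 140 CPM against 0.373 and 1.29 CPM. At the other end, Pglyrp1, a peptidoglycan recognition protein gene, stood at 14.6 and 13.9 CPM against 1299 and 1498 CPM.

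Set beside endothelial cells with at least 3 UMIs of Lyve1 and Mmrn1, of which cKO held 98 and Ctrl only 10, the gated cells had 283 of 3574 tested genes (7.92%) past 2-fold upward in both libraries and 152 (4.25%) downward. Cyp1a1, a gene of the aryl hydrocarbon receptor response, stood at 696 CPM in cKO and 936 CPM in Ctrl, against 3.02 and 12.3 CPM in the lymphatic gate. Flt1 stood at 595 and 634 CPM, against 19.6 CPM and 0 UMIs. The lymphatic genes outside the rule were nearly unread in gated cells, with Pdpn at 7 UMIs in cKO and 0 in Ctrl, against 506 and 358 CPM in the lymphatic gate, and Prox1 at 2 and 9 UMIs, against 196 and 210 CPM. The monocyte chemokine gene Ccl2 stood at 222 and 173 CPM against 3630 and 5635 CPM. Capillary genes were on the side of the gated cells here too, with 9 of 11 tested members at least 2-fold higher and 0 lower.

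The gated cells were not uniform. Arterial carriers were defined as cells with 3 or more UMIs over Sox17, Gja4, Gja5, Hey1, Sema3g and Bmx, and venous carriers as cells with 3 or more over Ackr1, Selp, Nr2f2, Vwf and Lrg1. Arterial carriers were 56 of 91 cells in cKO and 28 of 43 in Ctrl, and venous carriers were 47 and 24. Both sets of genes were carried by 33 and 18 cells, and neither by 21 and 9. Carriers were deeper: the median was 12592.5 UMIs in arterial carriers and 8567 in the other cells of cKO, and 12409 and 9413 in Ctrl, and depth thus moved with carriage. Cells with both sets had medians of 15246 UMIs in cKO and 22464.5 in Ctrl, against 7264 and 6130 in cells with neither. Because carriage by raw UMIs rises with depth, it cannot tell whether the lists divide the gated cells into separate groups. The plot of arterial against venous genes gives both lists in each cell.

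**Figure D3:**
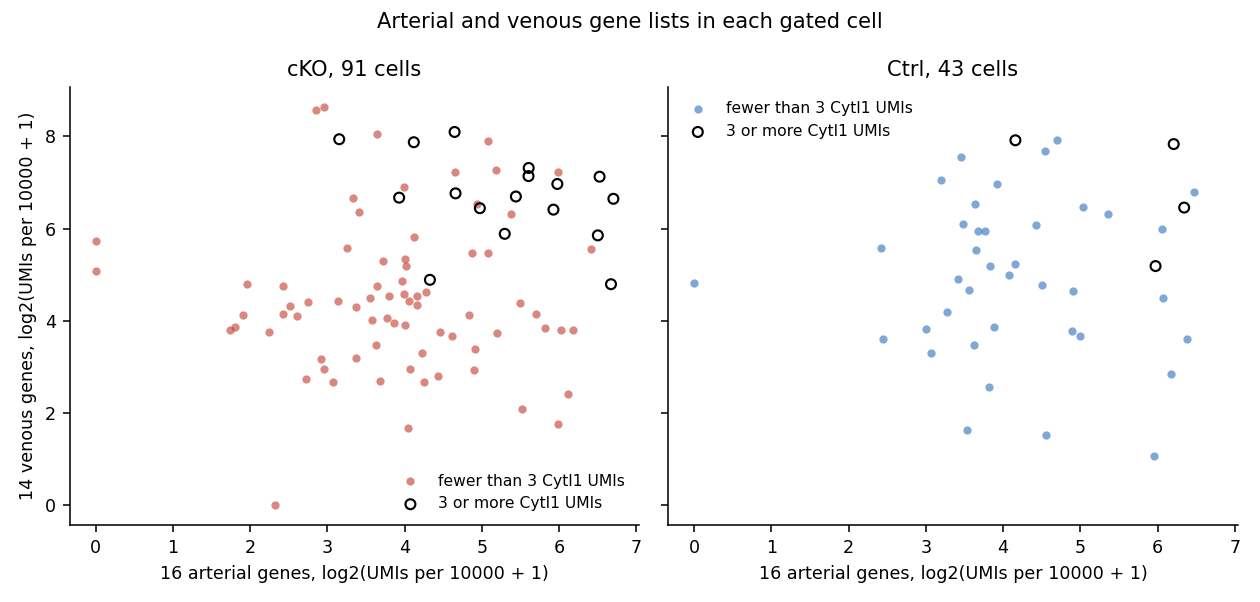
Each point is 1 gated cell, with the 16 genes of the arterial list on the x axis and the 14 genes of the venous list on the y axis, both as log2(UMIs per 10000 + 1), cKO left and Ctrl right. Open rings are the 17 cKO and 4 Ctrl cells with 3 or more Cytl1 UMIs. Whether high values of both lists occur in the same cells was not tested.

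Outside the genes used for the split, 36 of 2931 tested genes (1.23%) were at least 2-fold higher in arterial carriers of both libraries and 10 (0.341%) lower. Eln, which encodes elastin, stood at 270 CPM in arterial carriers and 27.8 CPM in the other cells of cKO, and at 179 and 6.41 CPM in Ctrl, where 1 cell held 62.9% of its UMIs. Fbln5 stood at 661 and 108 CPM in cKO and at 613 and 89.8 CPM in Ctrl. Gkn3, reported as an arterial gene of the mouse brain, stood at 143 and 20.8 CPM in cKO and at 315 CPM and 0 UMIs in Ctrl, with 39.7% and 49.7% of its UMIs in 1 cell. Matrix genes Col8a1, Col18a1, Fn1 and Htra1 and the matrix Gla gene Mgp were in the same group, with Mgp at 1618 and 448 CPM in cKO and at 1488 and 436 CPM in Ctrl.

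Lower in arterial carriers were Csf3, which encodes the granulocyte growth factor G-CSF, at 824 and 3053 CPM in cKO and at 1247 and 3182 CPM in Ctrl, and Lbp, the lipopolysaccharide-binding protein gene, at 37.6 and 257 CPM in cKO and at 91.4 and 334 CPM in Ctrl. Ackr1, a gene of the venous split, stood at 208 and 646 CPM in cKO and at 122 and 308 CPM in Ctrl. With cells thinned to 2000 UMIs before the split, a carrier was a cell that kept any UMI of the split genes. Levels still came from the unthinned counts, and the genes had been ranked on these same cells. These carriers were 50 of 91 cKO cells, with medians of 11060 UMIs in carriers and 9618 in the others. Then 11 of the 12 highest genes kept their direction in both libraries and 10 were still at least 2-fold higher, and of the 12 lowest 10 kept it and 6 stayed at least 2-fold lower. Cxcl2, one of the 12 highest, had a log2 ratio of 1.33 in cKO and -2.66 in Ctrl after thinning.

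For venous carriers, 48 of 2928 genes (1.64%) were at least 2-fold higher in both libraries and 15 (0.512%) lower. Sele, E-selectin, stood at 526 CPM in venous carriers and 2.61 CPM in the other cells of cKO, and at 298 and 18.9 CPM in Ctrl. Lbp was at 137 and 0 CPM in cKO and at 198 and 0 CPM in Ctrl, and Csf3 at 1860 and 382 CPM in cKO and at 2190 and 239 CPM in Ctrl. Sele was the 1 venous gene of 6 tested that passed 2-fold upward in venous carriers of both libraries, and 0 passed downward.

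Of 11 tested capillary genes, 1 was at least 2-fold higher in venous carriers of both libraries, Aqp1, and 2 were lower, Rgcc and Gpihbp1. Aqp1 stood at 285 CPM in venous carriers and 110 CPM in the other cells of cKO, and at 470 and 12.6 CPM in Ctrl. Rgcc stood at 215 CPM in venous carriers and 499 CPM in the other cells of cKO, and at 155 and 459 CPM in Ctrl, and Gpihbp1 at 214 and 489 CPM in cKO and at 157 and 447 CPM in Ctrl. With thinning before the split, the log2 ratio was -0.80 in cKO and -0.05 in Ctrl for Rgcc, and -1.32 and -0.48 for Gpihbp1. Outside the capillary list, Cldn5 stood at 307 and 970 CPM in cKO and at 317 and 912 CPM in Ctrl, and Rbp7 at 104 and 361 CPM in cKO and at 98.1 and 271 CPM in Ctrl. Depth moved with this split as well, with medians of 14526 and 8873.5 UMIs in cKO and of 19578 and 8848 in Ctrl. After thinning, venous carriers were still deeper than the others, with medians of 11480 and 9560 UMIs in cKO and of 13170 and 9317 in Ctrl. Then 10 of the 12 highest genes kept their direction in both libraries, 5 of them at 2-fold or more. Of the 12 lowest, 11 kept theirs but only 1, Ccl2, at 2-fold or more. Fabp4 did not separate the venous carriers, at 13125 and 13420 CPM in cKO and at 9201 and 9392 CPM in Ctrl.

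Cytl1 stood at 396 CPM in venous carriers and 118 CPM in the other cells of cKO, and at 368 and 12.6 CPM in Ctrl. The arterial split gave 345 and 184 CPM in cKO and 278 and 289 CPM in Ctrl. With thinning before the split, its log2 ratio in cKO was 1.49 for venous and 1.54 for arterial carriers, and in Ctrl it was 4.06 and -0.36. In Ctrl, 2 cells held 70 and 59 of its 182 UMIs. Eln was higher in both kinds of carrier, with 304 CPM in venous carriers and 18.3 CPM in the other cells of cKO and 170 and 37.7 CPM in Ctrl.

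The 12 most variable genes among the gated cells included several of inflammation. After thinning to 1000 UMIs per cell, the variance over the mean was 22.8 in cKO and 11.1 in Ctrl for Csf3, 15.3 and 7.93 for the neutrophil chemokine gene Cxcl1, and 11.7 and 9.81 for Selp, P-selectin. Selp stood at 950 CPM in cKO and 1166 CPM in Ctrl, but 20.9% and 30.2% of cells held a UMI, with a median of 0 and highest cells of 240 and 142 per 10000. Fabp4 varied by 10.5 and 7.21 around a mean of 13.96 and 10.5 UMIs per thinned cell. Cryab, a small heat shock gene among the most variable, rested on 1 cell in Ctrl, which held 84.2% of its UMIs. By level, on 3′ counts that do not scale with transcript length, the leading genes were the nuclear RNA Malat1 (32854 CPM in cKO and 28532 CPM in Ctrl), Fabp4, the heme oxygenase gene Hmox1 (10249 and 11140 CPM), Tm4sf1 (9147 and 8689 CPM) and Igfbp7 (6463 and 7611 CPM).

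Between the libraries, 9 of the 21 gene lists of the gated cells had no member past 2-fold. Of 5565 genes with at least 30 UMIs over both libraries, 215 (3.86%) passed 2-fold upward in cKO and 145 (2.61%) downward, and the median log2 ratio over all of them was 0.00. None of the 10 junction genes, 9 genes of caveolae and fenestrae, 19 genes of VEGF, TIE and TGF-beta family signalling, 13 venous genes, 10 heat shock genes, 10 MHC genes, 10 genes of hypoxia and glycolysis and 19 endothelial transcription factor genes that were tested passed 2-fold in either direction. Among fatty acid genes, 0 of 12 were higher and 1 was lower, Angptl4, which encodes an inhibitor of lipoprotein lipase, at 103 CPM in cKO and 227 CPM in Ctrl, and its log2 ratio of -1.14 became -0.72 without the deepest cell of each library. Of 13 capillary genes, 1 passed 2-fold upward and 0 downward. It was Car4, a carbonic anhydrase gene, at 29.2 CPM in cKO and 9.25 CPM in Ctrl, with 50% and 66.7% of its 34 and 6 UMIs in 1 cell. Downward were 1 of 20 pan-endothelial genes, Clec14a, which encodes a lectin of endothelium, at 43.8 and 113 CPM, and 1 of 12 shear stress and anticoagulant genes, Ptgis, prostacyclin synthase, with 97.1% of its 34 Ctrl UMIs in 1 cell. The laminin gene Lamb1, at 53.2 and 116 CPM, was the 1 of 13 basement membrane genes past 2-fold, and with Dll4 and Mcam 1 of 3 downward among 10 tip and angiogenic genes, where Trp53i11 was the 1 upward. Mcam, a cell adhesion gene, stood at 58.4 and 159 CPM, and its log2 ratio of -1.44 became -0.35 without the deepest cell of each library. Of 14 leukocyte homing genes, the interferon-induced chemokine genes Cxcl9 and Cxcl10 passed upward and 0 downward, with 61.9% of the 42 Cxcl9 UMIs of cKO in 1 cell. Of the 5 given markers outside the rule, 0 passed 2-fold. Fabp4 had a ratio of cKO over Ctrl of 1.43 (95% counting interval 1.39 to 1.47) and Cd36 one of 0.807 (0.696 to 0.938).

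Zeb1, Zeb2 and Ccnd1, tied to the microRNAs or to the question of the series, stayed within 2-fold. Of 11 tested genes reported as targets of the miR-200 family, 0 passed 2-fold in either direction, with a median log2 ratio of -0.11. Zeb1, a textbook target that represses epithelial genes, stood at 99.6 CPM in cKO and 159 CPM in Ctrl, a ratio of 0.627 (0.477 to 0.826), and Zeb2 at 30.9 and 37.0 CPM. Ccnd1, cyclin D1, stood at 80.7 and 116 CPM, a ratio of 0.698 (0.51 to 0.958). Esr1, the estrogen receptor gene, had 0 UMIs in cKO and 1 UMI in Ctrl, too few for a comparison. Krt8, the source of the Cre promoter, passed 2-fold upward, at 116 CPM in cKO and 38.6 CPM in Ctrl gated cells, against 3884 and 4264 CPM outside the endothelial gate. Its log2 ratio of 1.59 became 0.26 without the deepest cell of each library, 0.15 without cells carrying other types and 0.83 with equal weight per cell.

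Notch and arterial genes passed 2-fold in both directions. Of 10 tested Notch genes, 3 passed upward in cKO, Dll1, Hey1 and Hes1, and 2 downward, Notch4 and Dll4, with a median log2 ratio of 0.15. Of 15 tested arterial genes, 3 passed 2-fold upward in cKO and 2 downward, and their median was 0.01. The calls of Hey1, Notch4 and Dll4 are shared by both lists. Over all tested genes, 3.86% passed upward and 2.61% downward. Hey1, a transcriptional target of Notch, stood at 84.2 CPM in cKO and 21.6 CPM in Ctrl, a ratio of 3.9 (2.22 to 7.39), and Hes1, another target, at 141 and 66.3 CPM, a ratio of 2.12 (1.51 to 3.04). Gja4 stood at 278 and 137 CPM, a ratio of 2.03 (1.6 to 2.59) just past the 2-fold line. With equal weight per cell its log2 ratio was 0.79, below 2-fold, and without cells carrying other types it was 1.82. The receptor gene Notch4 stood at 7.73 and 44.7 CPM, a ratio of 0.173 (0.072 to 0.375), and the ligand gene Dll4 at 42.1 and 86.4 CPM. Dll1, another ligand gene, stood at 35.2 and 17.0 CPM, a ratio of 2.08 (1.05 to 4.48) just past 2-fold. For Dll4, 53.6% of the Ctrl UMIs came from 1 cell of 44756 UMIs, and without the deepest cell of each library its log2 ratio was 0.03, against -1.04 with it. It was 1.72 with Sparcl1 at 5 or more per 10000 and 0.63 without cells carrying other types.

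Among the 21 gene lists, the largest median difference was in interferon-stimulated genes, which cells switch on after interferon reaches their receptors. Of 20 listed members 19 could be tested, and 13 of these passed 2-fold upward in cKO and 0 downward. Their median log2 ratio was 1.60. Isg15, a ubiquitin-like modifier gene, stood at 1006 CPM in cKO and 196 CPM in Ctrl, a ratio of 5.14 (4.28 to 6.22), and the antiviral gene Rsad2 at 496 and 94.1 CPM, a ratio of 5.28 (4.05 to 6.99). Ifit1, which binds viral RNA caps, stood at 174 and 40.1 CPM, and Ifit3 at 149 and 7.71 CPM. The GTPase genes Igtp and Gbp7, more tied to interferon gamma, stood at 127 and 18.5 CPM and at 106 and 37.0 CPM. Irf7, a transcription factor of the response, stood at 107 and 35.5 CPM. Bst2, which tethers virus particles to the cell surface, did not pass 2-fold, at 541 and 469 CPM. Ifit2 had 57 UMIs in cKO and 0 in Ctrl, with 57.9% of the cKO UMIs in 1 cell.

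Much of the difference in summed UMIs rested on a few cells. The 20 genes of the list summed to 3742 CPM in cKO (3632 to 3855) and 1328 CPM in Ctrl (1241 to 1420), but the 5 richest cKO cells held 60.4% of the UMIs and the 5 richest Ctrl cells 39.6%. Per cell the median was 13.8 per 10000 in cKO and 10.0 in Ctrl, and the highest cells reached 381 and 57.2. After thinning to 1000 UMIs, 68.1% of cKO and 67.4% of Ctrl cells kept a UMI of the list. Isg15 alone had 49.6% of its cKO UMIs in 1 cell, with a per-cell median of 1.83 per 10000 in cKO and 0.555 in Ctrl. The bulk of the gated cells thus overlapped between the libraries, and a few cKO cells lay far above.

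**Figure D4:**
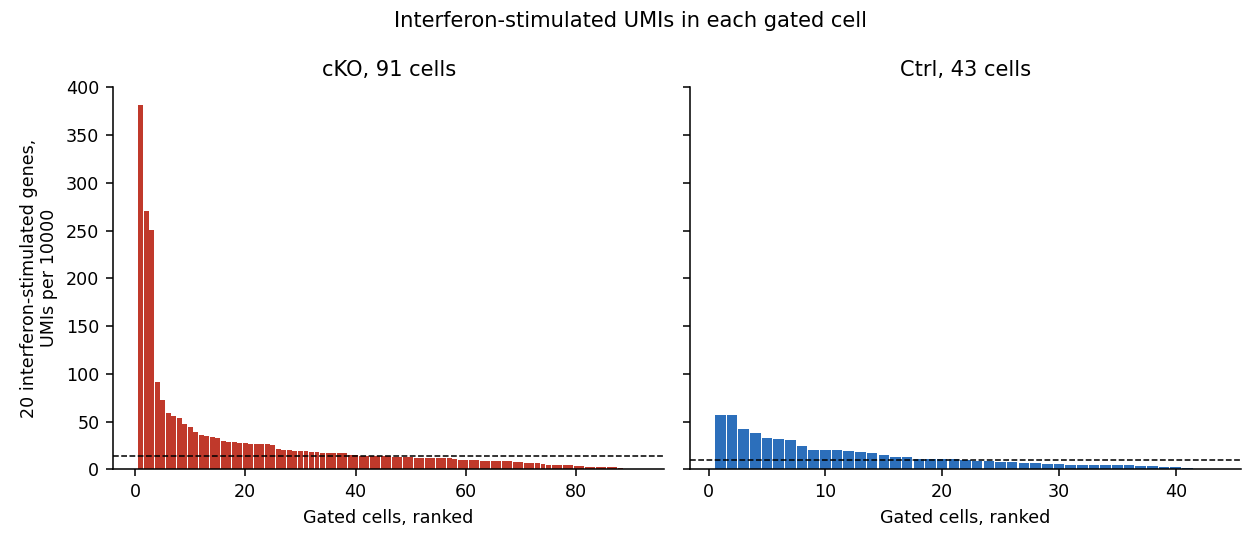
Each bar is 1 gated cell, ranked by the summed UMIs of the 20 interferon-stimulated genes per 10000 UMIs (y axis), cKO left and Ctrl right, with a dashed line at the median. The medians are 13.8 in cKO and 10.0 in Ctrl, and the highest cells reach 381 and 57.2.

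Without the 5% of cells richest in these UMIs, 5 in cKO and 2 in Ctrl, 2 of 13 tested members passed 2-fold upward and 1 downward. Their median was 0.41, and of all 5180 genes tested there 195 passed upward and 111 downward. Since the cells were removed by the UMIs compared, these values describe the spread over cells and test nothing. Igtp and Rsad2 then had log2 ratios of 1.94 and 1.54, while Isg15 had 0.65 and Ifit1 -1.73. Without the single richest cell of each library, 12 of 18 were higher, with a median of 1.23, and with each cell given the same weight 10 of 19 were, with a median of 1.25. The same list was higher in cKO in the other endothelial gates, with 14 of 20 members past 2-fold in Glycam1-high cells and a median of 1.40, where 9.75% of 8751 genes passed upward and 1.53% downward. Outside the endothelial gate 9 of 20 passed upward and 1 downward and the median was 0.89, where 6.53% of 14615 genes passed upward and 5.6% downward. That difference was therefore seen in other cells of the cKO library too, and library and genotype cannot be told apart. Cxcl10, an interferon-induced chemokine gene outside the list, stood at 925 CPM in cKO and 52.4 CPM in Ctrl, with 52.0% and 61.8% of its UMIs in 1 cell, and its log2 ratio of 4.14 became -0.25 without those 5% of cells.

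The promoters of 6 list members that passed 2-fold are shown because they hold the core letters of the interferon-stimulated response element, GAAANNGAAA or its reverse complement TTTCNNTTTC, marked in capitals. The stretches come from RefSeq promoter windows of 250 bases before to 50 after the start site (GRCm38.p6) and run 5′ to 3′ on the gene's strand.
Isg15, chr4:156200850-156200921, minus strand: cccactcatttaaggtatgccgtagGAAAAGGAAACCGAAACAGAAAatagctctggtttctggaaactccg
Ifit1, chr19:34640760-34640838, plus strand: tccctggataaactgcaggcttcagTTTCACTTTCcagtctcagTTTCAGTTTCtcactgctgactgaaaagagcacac
Ifit3, chr19:34583348-34583441, plus strand: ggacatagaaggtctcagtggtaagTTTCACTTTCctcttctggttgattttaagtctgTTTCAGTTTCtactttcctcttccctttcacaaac
Rsad2, chr12:26456538-26456597, minus strand: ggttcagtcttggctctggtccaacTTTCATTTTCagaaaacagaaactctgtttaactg
Igtp, chr11:58199497-58199556, plus strand: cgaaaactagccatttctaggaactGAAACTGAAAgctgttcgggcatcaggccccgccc
Gbp7, chr3:142530258-142530317, plus strand: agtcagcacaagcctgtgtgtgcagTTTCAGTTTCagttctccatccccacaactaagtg
The stretch of Isg15 held 3 overlapping matches, those of Ifit1 and Ifit3 held 2 each, and the others 1. Of the 15 list members with a promoter window, 11 (73.3%) held a match on either strand. Among all 27025 genes with a RefSeq promoter window, 1079 (3.99%) held one. The counts were 2 of 13 for arterial genes (15.4%), 0 of 11 for capillary genes and 0 of 10 for venous genes. A match describes the letters of the window and is not a measured binding site.

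The other genes with the highest ratios of cKO over Ctrl included genes that stood higher in cells outside the endothelial gate. Ptn, pleiotrophin, stood at 276 CPM in cKO and 23.1 CPM in Ctrl, Ly6d at 136 and 9.25 CPM, F3, tissue factor, at 147 and 15.4 CPM, and Sprr1a, a cornified envelope gene, at 71.3 and 1.54 CPM. Outside the endothelial gate Ptn stood at 4943 and 1309 CPM, Ly6d at 3929 and 920 CPM and F3 at 2328 and 961 CPM. All 5 tested luminal markers were at least 2-fold higher in cKO, against 3.86% of all tested genes. This goes with the 994 and 301 CPM of the whole luminal list. With equal weight per cell the log2 ratio of Krt19 was -0.21, and without the deepest cell of each library that of Krt8 was 0.26. In cKO, 1 cell of 53569 UMIs, the deepest of the gated cells, held 48.3% of the luminal marker UMIs, 66.7% of the Ptn UMIs and 78.3% of the Sprr1a UMIs. Without the deepest cell of each library, the log2 ratios were 2.05 for Ptn, 2.47 for Ly6d, 2.06 for F3 and 3.29 for Sprr1a, against 3.58, 3.88, 3.25 and 5.53 with it. The part of epithelial RNA in these ratios, in that cell or free in the droplets, was not tested.

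The noncoding transcript Gt(ROSA)26Sor had 38 UMIs in cKO and 1 in Ctrl, a ratio of 21.2 (3.58 to 857), in 31.9% and 2.33% of the gated cells, and no cell held more than 10.5% of the cKO UMIs. Its log2 ratio lay between 3.87 and 5.41 under the alternatives run. Clec3b, tetranectin, had 56 UMIs in cKO and 0 in Ctrl. The immediate early genes Fos and Ier2 stood at 944 and 402 CPM and at 628 and 298 CPM, the only 2 of 13 past 2-fold, and with equal weight per cell their log2 ratios were 0.78 and 0.93, both below it.

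**Figure D5:**
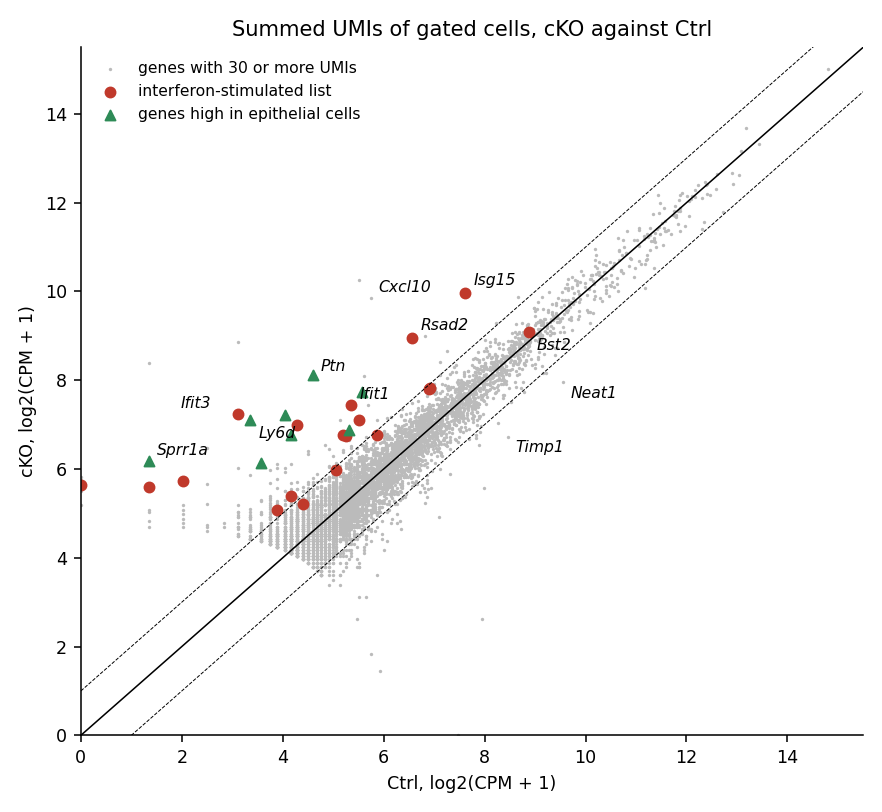
Each point is a gene with at least 30 UMIs in the gated cells of both libraries together, with log2(CPM + 1) in cKO on the y axis and in Ctrl on the x axis. Red circles are interferon-stimulated genes, green triangles genes high in epithelial cells, the solid line equality and the dashed lines a 2-fold difference. Isg15, Rsad2 and Ifit3 lie above the upper dashed line and Neat1 and Timp1 below the lower one.

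Among genes lower in cKO, Neat1, the nuclear RNA that scaffolds paraspeckles, was read across most cells. It stood at 247 CPM in cKO and 748 CPM in Ctrl, a ratio of 0.331 (0.285 to 0.383), and 72.5% of cKO and 93.0% of Ctrl cells held a UMI. Per cell the lowest, median and highest values were 0, 1.32 and 16.3 per 10000 in cKO and 0, 6.23 and 28.2 in Ctrl, so the ranges overlapped but the medians were far apart. Neat1 stood at 72.5 and 162 CPM in Glycam1-high cells and at 180 and 606 CPM outside the endothelial gate, lower in cKO in each. Its log2 ratio of -1.60 lay between -1.98 and -1.50 under the alternatives run.

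Several other low genes hung on 1 cell. Timp1, an inhibitor of matrix proteases, stood at 105 CPM in cKO and 350 CPM in Ctrl, but 1 Ctrl cell of 44756 UMIs and 8.06% mitochondrial UMIs held 85.5% of its Ctrl UMIs, and without the deepest cell of each library its log2 ratio was 0.98, against -1.74 with it. The same Ctrl cell held 56.2% of the Ctrl UMIs of Plau, which encodes the protease urokinase and stood at 36.9 and 113 CPM, with a log2 ratio of -1.61 that became -0.45 without the deepest cells. Itgb3, the integrin beta 3 gene, stood at 40.4 CPM in cKO and 116 CPM in Ctrl, in 28.6% and 51.2% of cells, with no cell holding more than 17.3% of its UMIs. Cd14, the lipopolysaccharide co-receptor gene, stood at 29.2 and 136 CPM, and its log2 ratio of -2.22 became -0.98 with Sparcl1 at 5 or more per 10000. Proliferation could not be compared, since 12 of 20 mitotic UMIs in cKO and 45 of 56 in Ctrl came from 1 cell each.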

How the data were processed

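Single-cell RNA-seq of FACS-enriched mouse mammary cells was deposited as 1 matrix per library, with whole-number UMI counts per gene and barcode; the authors made these counts with Cell Ranger 2 and mm10 per the submitters' processing notes, while the file headers record software version 3.0.0. Libraries were 10x Chromium 3′, per the labels' protocols. Of 31053 genes, 31011 matched GENCODE M21 by identifier, which gave coordinates.

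Cells with at least 500 genes and at most 10% mitochondrial UMIs were kept, and the gate was applied to raw UMIs and UMIs per 10000. Counts were summed per library and scaled to CPM. A gene was called at 2-fold with at least 30 UMIs over both sides, and genes of the rule stayed out of the counts. For ratios, sums of 0 took a floor of 3 counts in the summed group. Intervals are exact Poisson, Clopper-Pearson or conditional binomial at 95% and cover counting error only. There were no p-values, since each group was 1 library. Thinning drew 1000 UMIs per cell (2000 for the splits). In the thinned splits a carrier kept any UMI of the split genes, and levels came from unthinned counts. The members, the 21 gene lists and the 13 marker lists were chosen with earlier results of these data known.

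Genes were named by rule: the 12 highest and 12 lowest ratios of each comparison among genes with at least 30 UMIs in at least 15% of cells of the higher side (for comparisons in both libraries, by the weaker ratio), the 12 most abundant, the 12 most variable, the markers, the list members and genes tied to the deletion. Genes outside those ranks, such as Ifit2 and Car4, were named as list members. Alternatives were other gate limits, a 5% mitochondrial maximum, TMM scaling, equal weight per cell, other UMI minimums, removal of doublets, of cells carrying other types, of the richest or deepest cells, and totals without Glycam1. Totals without Glycam1, removal of the richest or deepest cells and thinning of the splits were chosen after seeing the data. The calculation was tested on simulated sums that held counting error only. They had no spread among cells or between libraries, so the simulation cannot tell how the calls behave under such spread. Python 3.11.15, numpy 2.4.6, scipy 1.17.1, pandas 2.3.3, scanpy 1.11.5 (Scrublet) and matplotlib 3.10.9 were used. No protein sequences were used here.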

Additional observations from a re-analysis of the deposited data

Results flagged for a closer look

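In 5 genes the difference between cKO and Ctrl had opposite signs in the gated cells and in the Glycam1-high cells of the same libraries, and the difference between both populations was not tested. Cd14 had a log2 ratio of -2.217 in gated cells (34 UMIs in cKO and 88 in Ctrl) and of 1.996 in Glycam1-high cells (540 and 26 UMIs). Acta2, smooth muscle actin, had -1.37 (107 and 154 UMIs) and 1.235 (49 and 4 UMIs). Timp1 had -1.741 (122 and 227 UMIs) and 1.12 (2138 and 189 UMIs). Dll4 had -1.038 (49 and 56 UMIs) and 2.478 (145 and 5 UMIs), and Plau had -1.608 (43 and 73 UMIs) and 3.046 (43 UMIs and 1 UMI). For Timp1, Dll4 and Plau, 1 Ctrl gated cell held 85.5%, 53.6% and 56.2% of the Ctrl UMIs.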

How the results depend on the processing

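With 1 library per group no replicate could be left out. No paired analysis was possible because each group has 1 library and the labels give no replicate number. For the gated shares, the counts of called genes and the interferon-stimulated median, 59 alternative values stayed close and 15 moved. For the other values, which include the ratios of single genes, 3201 stayed close and 432 moved. Another 15 changed sign from a difference of at least 2-fold. The gated share was 1.311% in cKO and 0.849% in Ctrl with Sparcl1 at 5 or more per 10000, and 1.238% in cKO without cells carrying other types. Genes called higher and lower in cKO were 637 and 510 with a minimum of 10 UMIs, and 950 and 2423 with 1 UMI. Over Glycam1-high cells they were 445 and 468 with TMM scaling, 1319 and 341 with 10 UMIs, and 2780 and 378 with 1 UMI, and 364 were lower with totals without Glycam1. The interferon-stimulated median was 0.412 without the 5% of cells richest in those UMIs, and Cxcl10, Ifi44 and Ifit1 then stood at -0.248, -0.026 and -1.726. Dll4 changed sign to 1.719 with Sparcl1 at 5 or more, 0.634 without cells carrying other types and 0.034 without the deepest cell. Timp1 changed sign to 0.722 with Sparcl1 at 5 or more, 0.834 with at most 5% mitochondrial UMIs, 1.255 without cells carrying other types, 0.927 without the cell richest in interferon-stimulated UMIs, 0.917 without the 5% richest and 0.982 without the deepest cell. Gkn3 stood at 0.157 without cells carrying other types, and Ifi27l2a and Krt19 at -0.049 and -0.209 with equal weight per cell. For Timp1 and Dll4, the deepest Ctrl cell, with 8.06% mitochondrial UMIs, 36 fibroblast and 90 interferon-stimulated UMIs, leaves by construction in all of their settings but the Sparcl1 minimum. The cause of that and of the other sign changes was not tested. Depth limits genes under 30 UMIs.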
